A study of Mus musculus with 4 samples.

Results

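The keratin genes of mouse colonic mucosa were examined: all genes whose symbol in the count file of the first wild-type library is Krt followed by a number and an optional letter a to c. The rule gave 49 genes of the 19308 that are listed for all 4 libraries. Transcripts were counted by RNA sequencing of total RNA from inflamed colonic mucosa of mice that lack Itch, the gene of the E3 ubiquitin ligase ITCH (Itch KO, 2 libraries), and from colonic mucosa of C57BL/6 wild-type mice (WT, 2 libraries). The labels give the state of all 4 samples as inflammation, while the extraction protocol calls only the knockout mucosa inflamed. They state no age, sex or treatment, no strain background for the knockout and no Itch allele. They do not say whether the libraries of a group came from different animals. The p-values are therefore about the spread among these 4 libraries, which may be technical.

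Keratins are the intermediate filament proteins of epithelial cells, and each filament is built from pairs of an acidic type I and a basic type II protein. Single-layered epithelia such as that of the colon are known for the simple keratins, with Krt8 as the main type II partner and Krt18, Krt19 and Krt20 as type I partners. Stratified squamous epithelia, as in epidermis, oesophagus and anal canal, use other pairs: Krt5 with Krt14 in the basal layer, Krt1 with Krt10 above it in cornified epithelium, and Krt4 with Krt13 above it in mucosal epithelium. Krt6a, Krt6b, Krt16 and Krt17 belong to wounded or hyperproliferative squamous epithelium and to hair follicles. Of the 49 members, 5 are simple keratins and 14 are squamous keratins (3 basal, 4 cornified, 3 mucosal and 4 hyperproliferative). A further 9 are keratins of the inner root sheath and companion layer of the hair follicle, 14 are keratins of the hair and nail shaft, and 7 belong to none of these classes.

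In GRCm38, 26 type I members lie on chromosome 11 between 99232761 and 100269871, and 22 type II members on chromosome 15 between 101347444 and 102004482. Krt18 is the exception, a type I gene at the edge of the type II cluster (chromosome 15, 102028180 to 102032027, plus strand). RefSeq promoters (GRCm38.p6, 250 bases before to 50 after the start site) were at hand for 33 of the 49 members, among them 7 squamous and 4 simple keratins. A pair from each class is shown because the classes differ between libraries as groups: Krt5 (chr15:101712856-101713155, minus strand) and Krt13 (chr11:100121517-100121816, minus strand, 1 of 2 start sites) from the squamous class, Krt18 (chr15:102027966-102028265, plus strand) and Krt20 (chr11:99438104-99438403, minus strand) from the simple class. Capitals mark matches on either strand to the TATA box TATAAA, to the AP-1-like letters TGANTCA or to the GC box GGGCGG. The 3 motifs do not overlap each other in these windows. N stands for any base, so TGANTCA is looser than the AP-1 site, which has C or G in the middle. The match shown in Krt13 is TGAATCA, with A in the middle.
Krt5: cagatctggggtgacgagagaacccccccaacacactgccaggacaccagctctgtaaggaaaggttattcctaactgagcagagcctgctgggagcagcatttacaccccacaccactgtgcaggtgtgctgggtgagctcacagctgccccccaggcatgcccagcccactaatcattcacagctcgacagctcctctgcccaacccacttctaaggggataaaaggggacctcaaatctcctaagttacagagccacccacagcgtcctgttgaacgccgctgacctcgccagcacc
Krt13: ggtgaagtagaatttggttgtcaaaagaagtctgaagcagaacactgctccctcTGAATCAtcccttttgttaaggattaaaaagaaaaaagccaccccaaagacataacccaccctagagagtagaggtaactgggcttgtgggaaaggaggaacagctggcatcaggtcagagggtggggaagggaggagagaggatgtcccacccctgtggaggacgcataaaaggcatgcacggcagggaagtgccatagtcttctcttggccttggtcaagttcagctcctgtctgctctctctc
Krt18: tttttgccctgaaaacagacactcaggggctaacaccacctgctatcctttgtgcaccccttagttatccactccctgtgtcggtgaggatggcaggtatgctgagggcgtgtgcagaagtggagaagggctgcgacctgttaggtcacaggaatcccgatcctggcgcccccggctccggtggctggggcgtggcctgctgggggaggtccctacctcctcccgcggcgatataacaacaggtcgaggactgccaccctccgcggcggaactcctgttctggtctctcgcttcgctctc
Krt20: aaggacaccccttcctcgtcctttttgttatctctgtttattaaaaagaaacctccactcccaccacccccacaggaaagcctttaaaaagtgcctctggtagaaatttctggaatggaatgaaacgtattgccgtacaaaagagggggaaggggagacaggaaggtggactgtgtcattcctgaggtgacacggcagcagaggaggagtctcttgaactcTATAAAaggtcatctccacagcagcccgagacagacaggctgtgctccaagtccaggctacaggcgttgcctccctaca
The letters TGANTCA are present in both promoters of Krt13 and in no other promoter of the squamous class. Of all 32851 RefSeq promoters, 7.81% hold them. The TATA letters are present in 2 of the 4 simple and 1 of the 8 squamous promoters, against 13.6% of all promoters. The GC box is present in 1 of the 4 simple promoters, that of Krt7, and in none of the 8 squamous ones, against 35.7% of all. A match is a description of the letters, and a missing match says only that they are not in this window.

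Total counts over the 19308 genes were 8181193 and 9463759 in Itch KO libraries 1 and 2 and 9674531 and 12199709 in WT libraries 1 and 2. Levels are given as CPM, counts scaled to library size with TMM factors, and 3 counts in 1 library correspond to 0.244 to 0.369 CPM. Itch stood at 11.9 and 13.4 CPM in the Itch KO libraries and at 204 and 183 CPM in the WT libraries, so the levels and the labels go the same way. Its log2 fold change was -3.93 (SE 0.15), with an adjusted p of 0.0922 in edgeR's quasi-likelihood test, above the threshold of 0.05. WT library 1 stood apart in the keratins. Of the 49 members, 21 had at least 10 counts there and more than 5 times the level of each other library, or 42.9%, where the same held for 1.57% of all 19308 genes. For WT library 2 the share of all genes was 0.979%, for Itch KO library 2 0.642% and for Itch KO library 1 0.0104%. The class sums and the fold changes of the squamous keratins are therefore also given without WT library 1.

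The simple keratins were abundant in all 4 libraries, and both groups overlapped for each of the 5. Krt8 stood at 193 and 152 CPM in Itch KO and at 189 and 145 CPM in WT. Its partner Krt18 stood at 134 and 114 CPM in Itch KO and at 121 and 96.0 CPM in WT. Itch KO library 1 and WT library 1 were the higher library of their group for both genes. Krt19, a type I keratin of simple epithelia, was at 169 and 133 CPM in Itch KO against 160 and 119 CPM in WT. Krt20, the type I keratin of differentiated intestinal epithelial cells, was at 207 and 162 CPM in Itch KO against 179 and 150 CPM in WT. Krt7, a type II keratin known mainly from ducts, was at 131 and 113 CPM in Itch KO against 138 and 115 CPM in WT. The ranges of the 2 groups overlapped for these genes as well.

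The log2 fold changes of the simple keratins, Itch KO over WT, ran from -0.04 for Krt7 (SE 0.16) to 0.20 for Krt18 (SE 0.18). None passed edgeR's quasi-likelihood test, whose smallest Benjamini-Hochberg adjusted p in the class was 0.565 (Krt18). Their summed level averaged 754 ± 113 CPM in Itch KO and 706 ± 115 CPM in WT (SD, n = 2 each), a difference below the spread within either group. The exact two-sided permutation test gave p = 0.667, where 2 against 2 libraries cannot go below 0.333. The log2 ratio of the sums was 0.10, and 0.27 without WT library 1. In bulk tissue, a difference in the number of epithelial cells and one in RNA per cell cannot be told apart.

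The counts of these genes moved little with sequencing depth. WT library 2 held 1.261 times the total of WT library 1, while its counts of the 5 simple keratins were 0.974 to 1.095 times those of WT library 1. Between Itch KO libraries 2 and 1 the total ratio was 1.157 and the simple keratins' ratios 0.933 to 1.023. Krt8, Krt18, Krt19 and Krt20 held 750 to 955 counts per kb of principal transcript in the 4 libraries. The 99th percentile of all genes ran from 770 to 912 counts per kb, so these 4 genes lay near it. The highest gene of each library was far above these 4, at 5502 to 11312 counts per kb. Krt7 was sparser, at 261 to 343 counts per kb, between percentiles 72.5 and 80.3. The ranges of ratios above include Krt7, which sets the upper end of the Itch KO range at 1.023. The cause of these ratios was not tested.

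**Figure D1:**
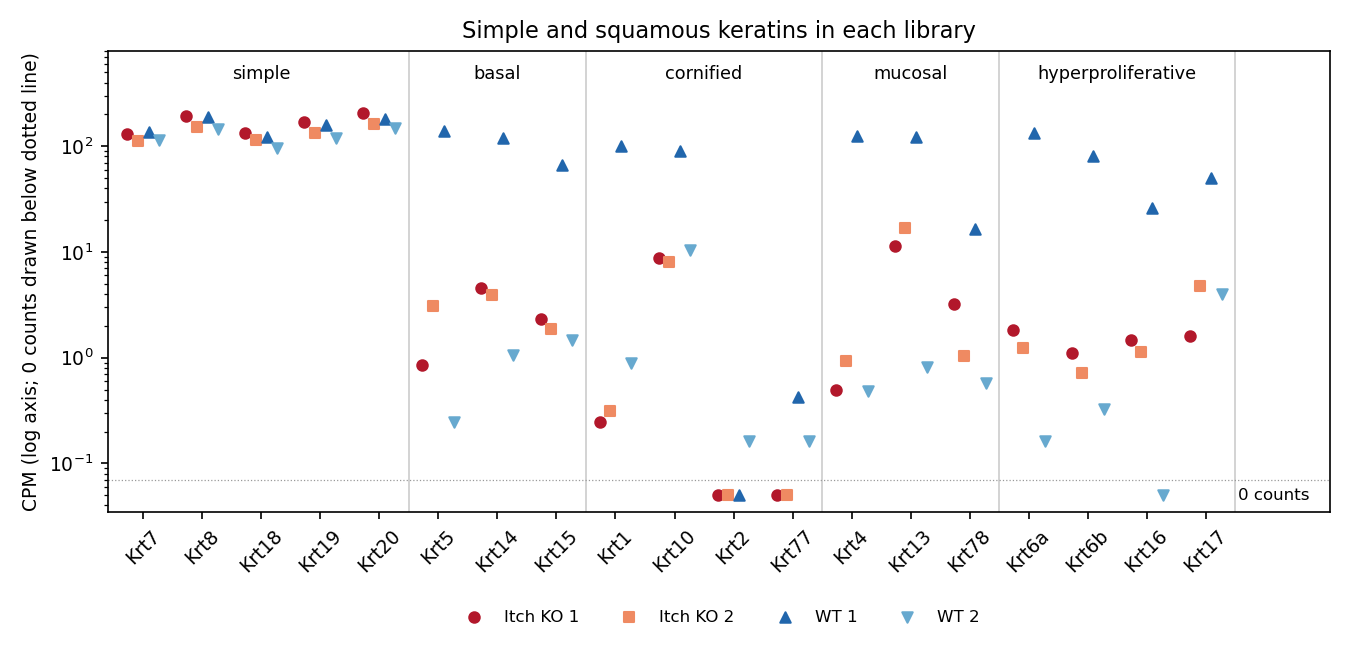
Level of the 5 simple and 14 squamous keratins in each library, in CPM on a log axis, with 1 symbol per library and 0 counts drawn below the dotted line. The simple keratins sit between 96.0 and 207 CPM in all 4 libraries, while 12 of the 14 squamous keratins are at 16.6 to 138 CPM in WT library 1 and below 17 CPM elsewhere.

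The squamous keratins were high in WT library 1 and low in the other 3. The 14 genes summed to 37.7 and 43.7 CPM in the Itch KO libraries and to 1071 and 20.9 CPM in the WT libraries, so the 2 WT libraries differed 51.3-fold. Means were 40.7 ± 4.22 CPM in Itch KO and 546 ± 742 CPM in WT (SD, n = 2 each), with a log2 ratio of -3.75 and an exact permutation p of 1. Without WT library 1 the log2 ratio was 0.96, and the Itch KO mean was 1.95 times the level of WT library 2. Squamous keratins made up 4.33% (95% Clopper-Pearson interval 3.86 to 4.82) and 6.09% (5.54 to 6.68) of the simple plus squamous keratin counts in Itch KO. In WT they made up 57.6% (56.9 to 58.4) and 3.23% (2.85 to 3.64). These intervals cover counting error only, and a share of counts is not a share of cells.

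The basal layer keratins had the following levels. Krt5 was at 0.86 and 3.10 CPM in Itch KO and at 138 and 0.244 CPM in WT. Its partner Krt14 was at 4.55 and 3.92 CPM in Itch KO and at 120 and 1.06 CPM in WT. Krt15, a further type I keratin of basal cells, was at 2.33 and 1.86 CPM in Itch KO and at 66.5 and 1.47 CPM in WT. For all 3 genes both Itch KO libraries lay between the 2 WT libraries, and the groups overlapped.

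Of the cornified pair, Krt1 was at 0.246 and 0.31 CPM in Itch KO and at 100.1 and 0.896 CPM in WT. Krt10 was at 8.72 and 7.95 CPM in Itch KO and at 91.0 and 10.5 CPM in WT. Both Itch KO libraries were below both WT libraries for this pair, and among the genes tested, Krt10 included, this held for 26.0%. Krt10 was the squamous keratin with the highest level in WT library 2, at 129 counts. The upper epidermal keratin Krt2 had 0 counts in 3 libraries and 2 in WT library 2, and Krt77 had 0 and 0 counts in Itch KO against 4 and 2 in WT.

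Of the mucosal pair, Krt4 was at 0.491 and 0.93 CPM in Itch KO and at 124 and 0.489 CPM in WT. Its type I partner Krt13 was at 11.3 and 16.7 CPM in Itch KO and at 123 and 0.815 CPM in WT. Krt13 thus had 92 and 162 counts in the Itch KO libraries against 10 in WT library 2, while Krt4 had 4 and 9 against 6. Krt78, a type II keratin of stratified epithelia, was at 3.19 and 1.03 CPM in Itch KO and at 16.6 and 0.57 CPM in WT. For all 3 mucosal keratins both Itch KO libraries lay between the 2 WT libraries, though Krt4 in Itch KO library 1 was close to WT library 2.

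The keratins of hyperproliferative epithelium were also highest in WT library 1. Krt6a was at 1.84 and 1.24 CPM in Itch KO and at 134 and 0.163 CPM in WT. Krt6b was at 1.11 and 0.723 CPM in Itch KO and at 81.3 and 0.326 CPM in WT, and reads of these near-identical neighbours may be split between them. Krt16 was at 1.47 and 1.14 CPM in Itch KO and at 25.8 and 0 CPM in WT. Krt17 was at 1.60 and 4.75 CPM in Itch KO and at 49.7 and 3.99 CPM in WT, with WT library 2 inside the Itch KO range. The groups overlapped for all 4 genes.

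**Figure D2:**
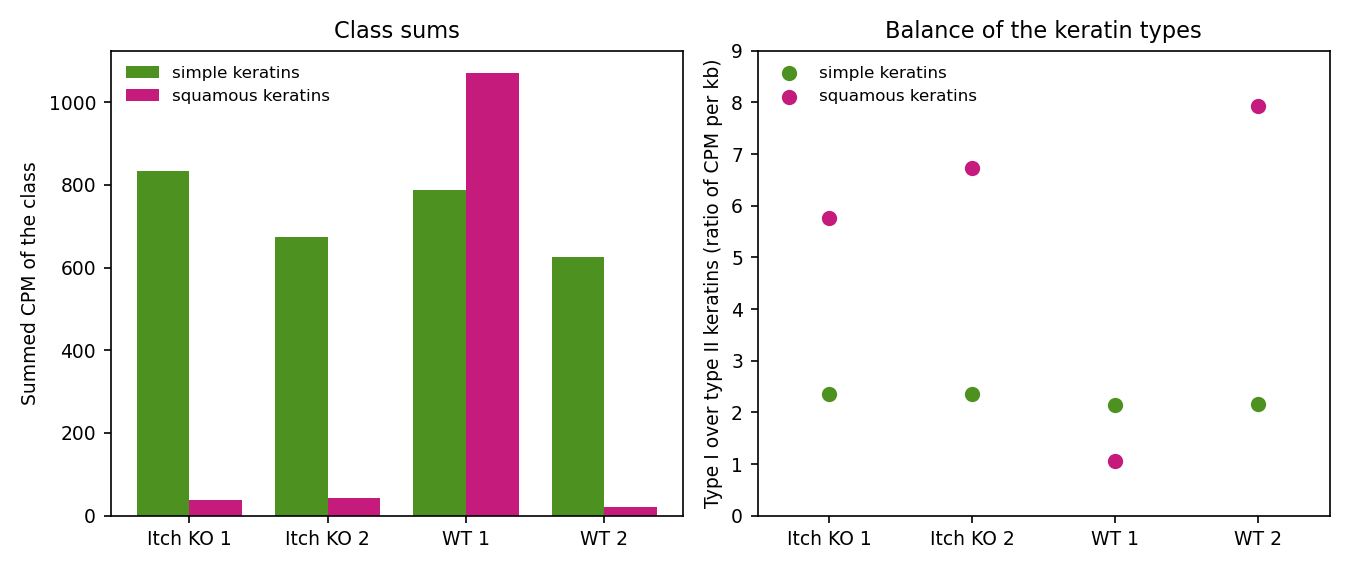
Left, summed CPM of the simple and of the squamous keratins in each library (bars from 0). Right, summed type I over summed type II keratin level within each class, in CPM per kb of principal transcript. The squamous sum exceeds the simple sum in WT library 1 alone, where the squamous type ratio is 1.05.

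In a per-length comparison, type I simple keratins exceeded type II simple keratins 2.35- and 2.36-fold in Itch KO and 2.14- and 2.16-fold in WT. The spread within each group was small (2.36 ± 0.00566 in Itch KO and 2.15 ± 0.00911 in WT, SD, n = 2 each), the groups did not overlap, and the exact permutation p was the smallest possible, 0.333. For the squamous keratins the ratio of type I to type II was 5.76 and 6.72 in Itch KO and 1.05 and 7.93 in WT. In WT library 1 both types were thus near balance, at 276 and 262 CPM per kb. In the other 3 libraries type I exceeded type II, but the type II sums were low. They were 2.96 and 3.14 CPM per kb in Itch KO and 1.21 CPM per kb in WT library 2. In WT library 2 the type II squamous keratin with the most counts, Krt1, had 11. The ratios of these 3 libraries thus rest on few type II counts. Per kb, the highest type I squamous keratins were Krt13 and Krt10 in both Itch KO libraries, and Krt10 and Krt17 in WT library 2. Krt7 has a principal transcript of 4094 bases in the annotation, against 1437 to 1958 for the other simple keratins, so its level per kb depends on which transcript is used.

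Of the 49 keratins 23 passed the filter on low counts and were tested, and edgeR called 0 of them, as it called 0 of all 16956 genes (0.0%) in either direction. At an unadjusted p below 0.05, 0 keratins were higher and 1, Krt27, was lower in Itch KO, against 10.2% and 9.52% of all genes tested. DESeq2 called 3 keratins lower, Krt10, Krt15 and Krt6b (adjusted p = 0.0339, 0.023 and 0.00641), and 0 higher, while it called 4.76% of all genes lower and 5.24% higher. DESeq2 was not run without single libraries. Of the 23 keratins, 2 (Krt36 and Krt83) were higher in both Itch KO libraries than in both WT libraries, against 30.0% of all genes tested, and 3 (Krt10, Krt12 and Krt27) were lower, against 26.0%. The groups overlapped for the other 18. In edgeR, the log2 fold changes of Krt10, Krt15 and Krt6b were -2.60, -4.01 and -5.47 with all libraries, and -0.31, 0.53 and 1.46 without WT library 1. The median log2 fold change of the 10 squamous keratins tested was -3.56 with all libraries, 1.94 without WT library 1 and -4.56 without WT library 2. Over all genes tested these medians were 0.008, 0.036 and 0.038. With all 4 libraries the filter needed counts in 2 libraries, so those in WT library 1 alone were not enough. Krt1 and Krt4 had 938 and 1166 counts in WT library 1 and were not tested in that fit. The filter was applied anew in each fit, so the medians over all genes cover 16956, 17634 and 17585 genes. Without WT library 2, Krt1 and Krt4 stood at log2 fold changes of -8.42 and -7.40. The squamous medians leave both out. Several squamous keratins passed through WT library 1 and an Itch KO library. Among them was Krt16, with 12 and 11 counts in Itch KO and 0 in WT library 2. Members with Itch KO above WT library 2 could thus pass, so the median without WT library 1 is no test of direction. These medians describe the genes that passed and not the class.

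Set against WT library 2 alone, 9 of the 14 squamous keratins were higher in both Itch KO libraries and 4 were lower in both. Over all 19308 genes these shares were 37.8% and 38.7%. The 4 lower ones were the cornified keratins Krt1, Krt2, Krt10 and Krt77, of which Krt2 and Krt77 rest on 2 counts each in WT library 2. Among the 9 higher ones, Krt4 had 4 and 9 counts in Itch KO against 6 in WT library 2. Krt15 had 19 and 18 against 18. The order of Krt4 and Krt15 therefore depends on the scaling. By log2 fold change without WT library 1, Krt13 stood at 4.11 (SE 0.85, edgeR adjusted p = 0.217), Krt6a at 3.16 (adjusted p = 0.314), Krt5 at 2.99 (adjusted p = 0.401) and Krt14 at 2.00 (adjusted p = 0.356). In WT library 2 these rest on 10 counts of Krt13, 2 of Krt6a, 3 of Krt5 and 13 of Krt14. Krt78 stood at 1.87, Krt6b at 1.46 and Krt15 at 0.53, while Krt10 stood at -0.31 and Krt17 at -0.30. Krt16 had 0 counts in WT library 2, so its fitted value depends on the prior count. None of the tested keratins passed in that fit, in which the single WT library is assumed to vary like the Itch KO libraries. Of the simple keratins, 4 of 5 were higher in CPM in both Itch KO libraries than in WT library 2, by at most 1.30 times on the mean. Their summed counts before scaling were 6791 and 6526 in Itch KO against 7667 in WT library 2, so this order depends on the scaling.

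**Figure D3:**
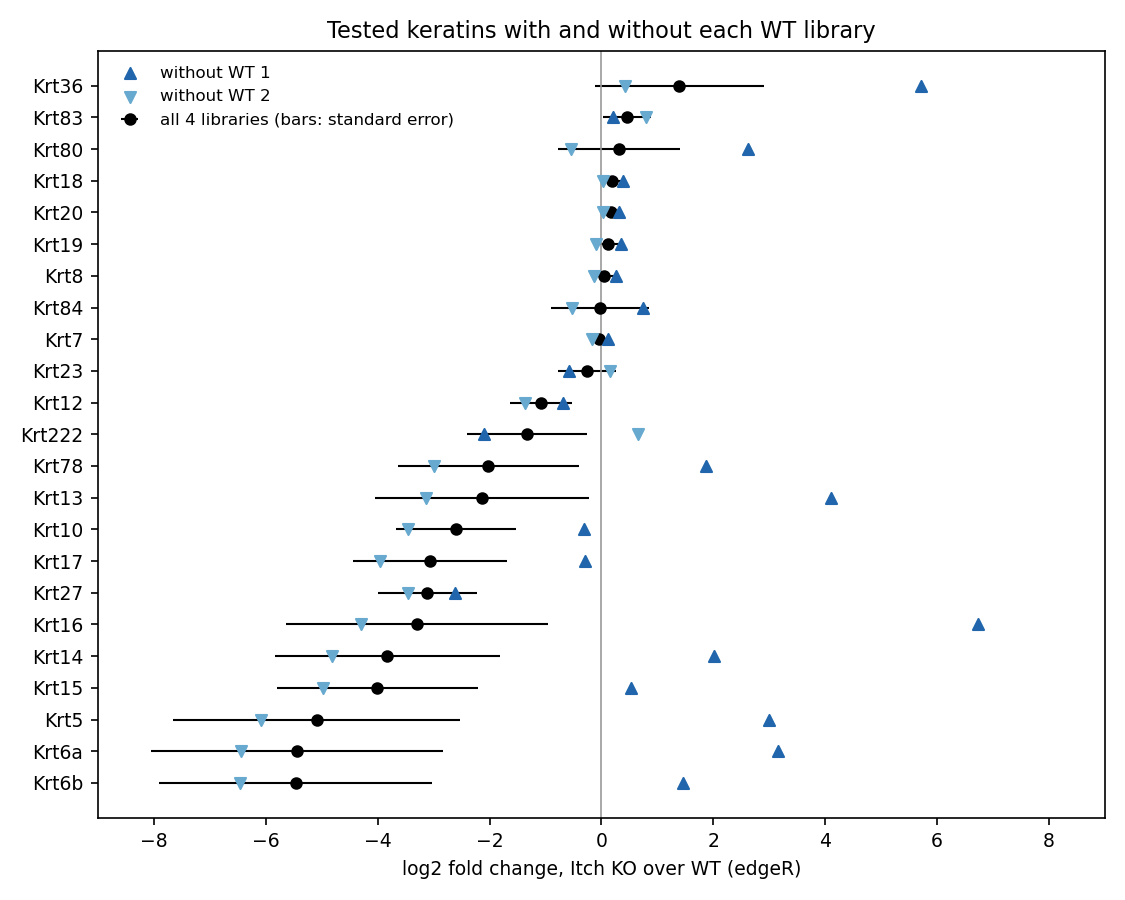
Log2 fold change, Itch KO over WT, of the 23 keratins tested with edgeR, with all 4 libraries (black, bars are standard errors) and without WT library 1 or WT library 2 (triangles). Of the 10 squamous keratins, 8 change sign without WT library 1, among them Krt5 at -5.09 against 2.99. Several of the 10 passed the filter on low counts through WT library 1 and an Itch KO library, with few counts in WT library 2.

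The hair follicle keratins gave a further set of genes that were present in WT library 1. Krt71, a type II keratin of the inner root sheath, had 0 and 0 counts in Itch KO and 180 and 0 in WT. Its type I partner Krt25 had 0 and 0 counts in Itch KO and 108 and 4 in WT. Krt28 and Krt73, also of the inner root sheath, had 0 counts in both Itch KO libraries and in WT library 2, and 17 and 21 in WT library 1. Krt75, of the companion layer, had 6 and 1 counts in Itch KO and 116 and 1 in WT. All 9 members of this class were highest in WT library 1, against 21.6% of all 19308 genes.

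Krt27, another inner root sheath keratin, was the member of its class with the most counts in WT library 2, where it had 55. It stood at 0.246 and 1.14 CPM in Itch KO and at 7.89 and 4.48 CPM in WT. Both Itch KO libraries were below both WT libraries, without overlap. Its log2 fold change was -3.11 (SE 0.89, edgeR adjusted p = 0.191) and -2.62 without WT library 1.

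Of the hair and nail shaft keratins, 3 were tested. Krt36 was at 25.4 and 18.1 CPM in Itch KO and at 16.2 and 0.407 CPM in WT. Both Itch KO libraries were above both WT libraries, as for 30.0% of all genes tested, and the WT libraries differed from each other by more than the groups did. Its log2 fold change was 1.39 (SE 1.50, adjusted p = 0.627 in edgeR) and 5.71 without WT library 1 (adjusted p = 0.194). The gene that the count file calls Krt83, named Krt87 in GENCODE M21, was at 16.3 and 13.8 CPM in Itch KO against 8.64 and 13.2 CPM in WT, again without overlap but with a log2 fold change of 0.46 (SE 0.43), and 0.21 without WT library 1. Krt84 was at 36.7 and 7.75 CPM in Itch KO against 31.8 and 13.4 CPM in WT, with replicate 1 the higher library in both groups. Its log2 fold change was -0.02 (SE 0.88), and 0.74 without WT library 1.

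The other shaft keratins with at least 10 counts in a library were Krt34, Krt35, Krt81 and Krt86. Krt34 had 0 and 0 counts in Itch KO against 14 and 0 in WT, and Krt35 had 1 and 0 against 14 and 1. Krt81 had 1 and 3 counts in Itch KO against 17 and 1 in WT, and Krt86 had 2 and 15 against 6 and 0. Type II shaft keratins are close copies of each other, so their low counts may be split. Over all classes 14 of the 49 members had fewer than 10 counts in every library. They were Krt2 and Krt77 of the squamous class, Krt26, Krt72 and Krt74 of the sheath class, Krt31, Krt32, Krt33a, Krt33b, Krt39, Krt40 and Krt82 of the shaft class, and Krt24 and Krt42. The highest of these counts was 9, for Krt72 in WT library 1, and Krt40 had 0 in all 4 libraries.

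The remaining keratins did not follow WT library 1 as a set. Krt23, a type I keratin, was at 28.3 and 13.3 CPM in Itch KO against 18.6 and 31.2 CPM in WT. Krt80, a type II keratin found in many epithelia, was at 9.46 and 18.3 CPM in Itch KO against 20.2 and 2.28 CPM in WT. Both genes overlapped between groups. The log2 fold change of Krt80 was 0.31, and 2.62 without WT library 1. Krt222, a keratin-like gene, was at 2.58 and 5.78 CPM in Itch KO against 2.67 and 18.3 CPM in WT, with its highest level in WT library 2. Krt12, known from the corneal epithelium, was at 1.35 and 1.03 CPM in Itch KO against 3.09 and 1.96 CPM in WT, and 1007 of its exonic bases overlap another annotated gene, so its reads may belong to either. Krt79 was nearly confined to WT library 1, with 0 and 2 counts in Itch KO against 76 and 4 in WT.

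Most squamous genes that are not keratins were highest in WT library 1, as the squamous keratins were. Of 24 such genes, 20 were highest there, against 21.6% of all 19308 genes. Of the 24, 11 had at least 10 counts there and over 5 times the level of each other library. This leaves out 4 with 0 counts in the other 3 libraries. Sprr1a, Sfn, Perp and Tgm1 were highest in an Itch KO library. Tgm1 was at 28.9 and 92.7 CPM in Itch KO against 62.3 and 1.30 CPM in WT. In WT library 1 the abundant genes Pkp1, Evpl and Tgm3 stood at 2.36, 1.76 and 1.63 times the next highest library. Trp63, the master transcription factor of squamous epithelium, was at 0.246 and 0.31 CPM in Itch KO and at 59.7 and 0.163 CPM in WT. Col17a1, which anchors basal cells to the basement membrane, was at 1.47 and 1.55 CPM in Itch KO and at 103 and 0.896 CPM in WT. The cornified envelope gene Sprr3 had 0 and 0 counts in Itch KO and 305 and 0 in WT. The list summed to 768 and 552 CPM in Itch KO against 1641 and 459.5 CPM in WT, and it includes genes that the colon itself expresses, such as Perp at 142 and 106 CPM in Itch KO against 136 and 106 CPM in WT. Of the 4 posterior hindgut genes, all were highest in WT library 1, and 2, Hoxd13 and Hoxd12, were there over 5 times the level of each other library. Hoxd13 was at 13.5 and 21.4 CPM in Itch KO against 147 and 0.978 CPM in WT. Hoxa13 was at 72.7 and 50.3 CPM in Itch KO against 88.0 and 12.4 CPM in WT, so WT library 2 was the lowest of the 4 for both genes. Hoxc10 had 0 and 0 counts in Itch KO against 20 and 26 in WT, with nearly equal CPM in the WT libraries.

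**Figure D4:**
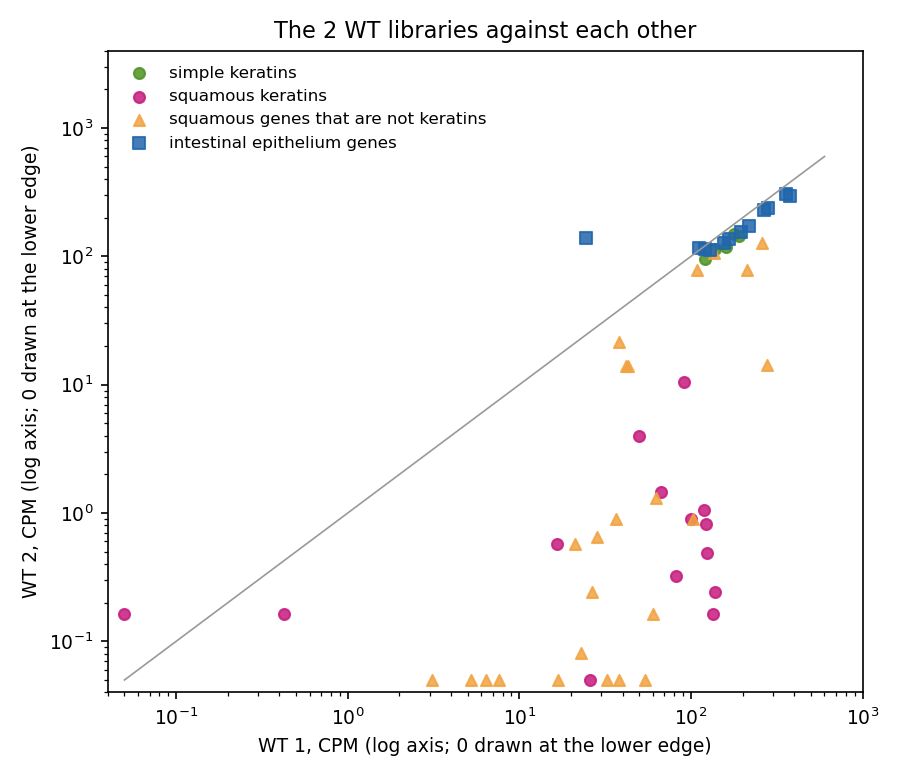
Level in WT library 1 (x axis) against WT library 2 (y axis), in CPM on log axes, for the simple and squamous keratins, squamous genes that are not keratins and intestinal genes, with the line of equal levels and 0 counts drawn at the lower edge. Simple keratins lie near the line, for example Krt20 at 179 against 150 CPM, while Krt5 lies at 138 against 0.244 CPM and the intestinal gene Cdx2 lies above the line.

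Intestinal epithelium genes differed less between the libraries. The 12 genes summed to 2680 and 2020 CPM in Itch KO against 2401 and 2142 CPM in WT. Epcam, an epithelial adhesion gene, was at 183 and 148 CPM in Itch KO against 166 and 136 CPM in WT. The exception was Cdx2, the transcription factor of intestinal identity, at 130 and 115 CPM in Itch KO against 24.3 and 139.7 CPM in WT, lowest in WT library 1. The part of the cells that carry these squamous, hindgut and intestinal markers in the keratin values was not tested.

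Leukocyte genes differed between the groups in one direction. All 6 were higher in both Itch KO libraries than in both WT libraries, where 30.0% of all genes tested were, with a sum of 505 and 590 CPM in Itch KO against 236 and 181 CPM in WT, and Ptprc, the pan-leukocyte marker, at 199 and 244 CPM against 76.2 and 72.6 CPM. Whether the higher leukocyte gene level bears on the keratin levels was not tested. Of the genes that link keratins to desmosomes and other structures, 13 of 14 were listed. None passed edgeR's test, and the median log2 fold change was -0.05, and 0.03 without WT library 1. In both Itch KO libraries 5 of the 13 were lower and 1 was higher than in both WT libraries, against 26.0% and 30.0% of all genes tested. DESeq2 called 3 of the 13 lower, Ppl, Dst and Plec, against 4.76% of all genes tested. Periplakin (Ppl) was at 24.6 and 21.2 CPM in Itch KO against 121 and 71.3 CPM in WT (log2 fold change -2.07, edgeR adjusted p = 0.123), and -1.62 without WT library 1. Dst, which ties keratins to hemidesmosomes, was at 229 and 225 CPM in Itch KO against 450 and 417 CPM in WT (log2 fold change -0.93, edgeR adjusted p = 0.129), and -0.86 without WT library 1. Desmoplakin (Dsp), the main desmosomal anchor of keratins, was at 428 and 263 CPM in Itch KO against 598 and 456 CPM in WT.

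Intermediate filament genes of other families were set beside the keratins. Of 16 such genes 2 were higher and 2 lower in both Itch KO libraries than in both WT libraries, against 30.0% and 26.0% of all genes tested. edgeR called 0 of the 16, and DESeq2 called 2 higher (Bfsp2 and Lmnb1) and 1 lower (Synm), against 5.24% and 4.76% of all genes tested. Vimentin (Vim), the filament protein of mesenchymal cells, was at 135 and 161 CPM in Itch KO against 137 and 95.2 CPM in WT. The lens filament gene Bfsp2 was at 4.91 and 7.95 CPM in Itch KO against 0.32 and 0.0815 CPM in WT (log2 fold change 4.98, edgeR adjusted p = 0.128), and 6.12 without WT library 1, where WT rests on 1 count. Of the 6 stroma and muscle genes 1 was higher and 1 lower in both Itch KO libraries, against the same 30.0% and 26.0%. The lower one was Myh11, the smooth muscle myosin, at 199 and 271 CPM in Itch KO against 590 and 393 CPM in WT, and DESeq2 called it lower (adjusted p = 0.00219). Of the 6 skin appendage genes 5 were highest in WT library 1, against 21.6% of all 19308 genes. Only 1 of the 6, Scd3, had at least 10 counts there and over 5 times the level of each other library. Tchh, the trichohyalin gene of the inner root sheath, was at 2.70 and 2.17 CPM in Itch KO against 22.1 and 10.6 CPM in WT, with the same order of groups as Krt27.

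Across the 49 keratins the Itch KO libraries ranked the genes alike, with a Spearman rho of 0.95, where all tested genes gave 0.955. The WT libraries had a rho of 0.70 over the keratins, where all tested genes gave 0.943. WT library 2 had a rho of 0.82 and 0.84 with the Itch KO libraries, so over the keratins it ranked closer to them than to WT library 1. These values are across genes, which are not independent replicates, and the libraries share genes with 0 counts.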

How the data were processed

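RNA from colonic mucosa was sequenced in 2 Itch KO and 2 WT libraries. The deposited values are counts per gene; HTSeq 0.6.1, SAMtools 0.1.19, TopHat2 and CASAVA 1.8.2, with the builds GRCm38 and mm10, are listed per the submitters' processing notes. No strand setting is given in the sources used here; overlapping or near-identical genes are uncertain. The file of WT library 1 lists 19308 genes and the others 39179; the shared genes were used and hold 97.26 to 97.72% of the others' counts. Lines without a gene (18.24 to 23.02% no feature, 2.67 to 3.03% ambiguous, in 3 files) were left out. Groups followed the labels. Genes were filtered with filterByExpr (minimum count 10) and tested with edgeR 4.0.16 (TMM, quasi-likelihood, R 4.3.3), Benjamini-Hochberg threshold 0.05; the procedure was tested on simulated data. Sums were compared by exact permutation. Lengths came from GENCODE M21. DESeq2 1.42.0, limma 3.58.1 voom, other scalings, filters, a replicate block and leaving out each library were alternatives. All simple and squamous keratins are named, as are other keratins with at least 10 counts in a library; marker genes are named by mean level or beside a result they move with. The members and lists were chosen with earlier results of these data known.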

Additional observations from a re-analysis of the deposited data

Results flagged for a closer look

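One keratin that the symbol rule does not take stood out among the genes outside the comparison. It is listed as 4732456N10Rik and is named Krt90 in GENCODE M21 (GRCm38 chromosome 15, 101552356 to 101562950, minus strand, within the type II keratin cluster). It had 752 and 631 counts in Itch KO and 37 and 6 counts in WT, or 78.8 ± 19.3 CPM in Itch KO and 2.22 ± 2.45 CPM in WT (SD, n = 2 each). Both Itch KO libraries were above both WT libraries, as for 30.0% of all genes tested. The log2 fold change was 5.19 (SE 0.98), with an adjusted p of 0.131 in edgeR and 1.22e-08 in DESeq2, and 4.31 to 7.31 when each library was left out in turn. By edgeR's p it ranked 639 among the 16956 genes tested. Its exons overlap those of Gm44393, and reads of the 2 genes cannot be told apart here. Groups of 2 libraries are too small for the check of single libraries that stand apart within a group.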

How the results depend on the processing

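With 2 libraries a group, 1 library decides the direction of the squamous sum; whether deeper or further libraries would alter the calls was not tested. DESeq2 called 889 genes higher and 807 lower in Itch KO, where edgeR, its other scalings and filters and limma voom called 0 in either direction; the cause was not tested. Under limma voom the log2 fold changes of Krt13 and Krt16 turned to 0.78 and 0.59. Same-numbered libraries deviated together with a correlation of 0.0481 over 16956 genes. With 2 libraries a group this cannot decide whether they share more than a number, and the labels do not say. With the replicate block 0 genes were called higher and 0 lower, and Krt13 stood at 0.08. Of the 23 keratins tested, 6 (Krt12, Krt17, Krt18, Krt27, Krt36 and Krt83) kept their direction and call in every alternative run that held them. Krt12 and Krt27 were left out by the filter on a mean of at least 5 CPM, which held 21 of the 23. Krt16 without WT library 1 depends on the prior count and is no bound.

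When each library was left out in turn, edgeR's counts of genes higher and lower stayed at 0. The log2 ratio of the simple sum ran from -0.07 to 0.27, that of the squamous sum from -4.72 to 0.96, and the difference in squamous share from -52.4 to 1.98 percentage points. Leaving out libraries moved the log2 fold changes of Krt5 from -6.30 to 2.99, Krt6a from -6.45 to 3.16, Krt6b from -6.47 to 1.46, Krt13 from -3.13 to 4.11, Krt14 from -4.83 to 2.00, Krt15 from -4.99 to 0.53, Krt16 from -4.30 to 6.73 and Krt78 from -3.04 to 1.87. The ranges for the simple keratins were -0.18 to 0.11 for Krt7, -0.14 to 0.27 for Krt8, -0.09 to 0.36 for Krt19 and -0.02 to 0.34 for Krt20. Those of the other keratins that turned were -0.90 to 0.19 for Krt23, -0.54 to 2.62 for Krt80, -1.54 to 0.74 for Krt84 and -2.10 to 0.65 for Krt222. Other scalings, levels per kb and sums without the most abundant member kept the direction of the class ratios, at 0.07 to 0.13 for the simple and -4.18 to -3.61 for the squamous keratins. Summed counts without any scaling turned the log2 ratio of the simple keratins to -0.18.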

Other observations

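Other keratins outside the symbol rule had few counts. The gene named Krt83 in GENCODE M21, listed as 5430421N21Rik, had 4 and 16 counts in Itch KO and 7 and 4 counts in WT. Krt9 and Krt76 had 0 counts and Krt88 had 2 and 0 counts in Itch KO against 1 in WT library 2, in the 3 files that list them.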
